A study of Mus musculus with 12 samples.

Results

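The caudal homeobox genes Cdx1, Cdx2 and Cdx4 and the early Hox genes Hoxb1 and Hoxb2 were examined in mouse embryoid bodies, the floating aggregates that embryonic stem cells form as they differentiate. The genes were taken by name as posterior patterning genes downstream of primitive streak Wnt signals, and every probe set that the array's annotation assigns to 1 of these symbols alone was used. They had 6 of 45101 probe sets, 2 for Cdx2 and 1 for each other gene, and made up 5 of the 18193 genes tested. Cells of 3 genotypes were used, all of strain 129 per the labels: Smad4-null, Trim33 knocked down (Trim33-KD) and wild type (WT). Each genotype was treated at day 2.5 for 2 h with activin (ac, 50 ng/ml) or with SB431542 (SB, given as 10 mM in the labels), which blocks the type I receptors of activin and nodal. No group was left untreated, so every response below is activin minus SB431542.

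The Cdx proteins are transcription factors of the posterior primitive streak that switch on Hox genes, and their own genes respond to Wnt, FGF and retinoid signals. Hox genes lie in clusters and are activated in the order of their place in the cluster; Hoxb1 and Hoxb2 are neighbours in the HoxB cluster and belong to the genes activated early, in gastrulation. Activin and nodal act through Smad2 and Smad3, which share the partner Smad4; Smad4 also serves the Smads of the BMP pathway. Trim33 is a nuclear protein that binds Smad2 and Smad3.

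Each of the 6 groups had 2 arrays, 12 in all, and this number limits the precision. Separate cultures are not stated for the replicates, so the p-values may measure technical spread only. The labels do not say whether the genotypes share a parent line, so genotype and line cannot be told apart, and no source used here gives the method of the Trim33 knock-down. Trim33 stood at 34.4% of the WT signal in Trim33-KD arrays, and Smad4 at 115% in Smad4-null arrays, so the Smad4 probe set does not check that label. Median log2 signals of the arrays were 5.85 to 6.30. Signals were less spread on Smad4-null-ac replicate 1 and WT-SB replicate 2 (SD 3.12 and 3.07) than on the others (3.24 to 3.38). The pluripotency and epiblast genes Pou5f1, Nanog, Sox2, Fgf5 and Dnmt3b, taken as identity markers of these embryoid bodies, had a mean log2 signal of 9.89 or more in each genotype. In Smad4-null 4 of these 5 were called: Fgf5 (-1.43), Nanog (-0.38) and Pou5f1 (-0.31) fell and Sox2 (0.49) rose. Against WT, 18.4% of all genes were called there. Among the 9096 genes of higher mean signal, which include all 5 markers, it was 25.4%. The 4 markers called moved in the same arrays as the Cdx and Hox genes below, and their part in those results was not tested.

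By mean signal over the 12 arrays, all 5 genes lay below the median of gene signals. Cdx2 stood at the 47.6th percentile of genes, Hoxb1 at the 45.9th, Hoxb2 at the 39.7th, Cdx1 at the 24.3rd and Cdx4 at the 11.7th. These means include the Smad4-null arrays, where Cdx2 was low. Its brighter probe set lay at the 64.8th to 72.3rd percentile of probe sets on WT arrays and the 68.8th to 73.3rd on Trim33-KD arrays. No detection calls were used, and each value is a log2 signal of 1 probe set that is not compared in level with another.

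In Smad4-null embryoid bodies Cdx1, Cdx2 and Hoxb1 were low. Cdx2 fell to 12.9% and Hoxb1 to 53.7% of the WT signal. Cdx1 fell to 7.67% as deposited, but its Smad4-null signals were near the bottom of the arrays. Its call was lost when values were floored at 64 on the linear scale. WT signals of Cdx1 were 41.6 to 68.2 on that scale, so this floor left little difference to test. Cdx4 and Hoxb2 did not pass the test. In limma on the values as deposited, 3 of 5 genes were called lowered with a Benjamini-Hochberg adjusted p under 0.05, against 11.3% of all genes called lowered and 18.4% called in either direction. The same 3 had every Smad4-null array below every WT array, which held for 15.0% of all genes. The median difference of the 5 genes was -0.90 on the log2 scale and that of all genes -0.03. In bulk samples fewer cells of a type and less RNA per cell cannot be told apart.

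Cdx1, a direct target of Wnt signalling in the mouse, had log2 signals of 2.31 and 1.67 in Smad4-null-ac, 2.40 and 1.60 in Smad4-null-SB, 5.98 and 6.49 in Trim33-KD-ac, 5.75 and 5.64 in Trim33-KD-SB, 5.89 and 6.09 in WT-ac, and 5.38 and 5.44 in WT-SB. All 4 Smad4-null arrays were low, and the other 8 lay close together. On the linear scale Cdx1 signals were 3.03 to 5.28 in Smad4-null and 41.6 to 68.2 in WT. Cdx1 averaged 1.99 ± 0.42 in Smad4-null and 5.70 ± 0.35 in WT (log2 mean ± SD, n = 4 each), a difference of -3.70 (SE 0.22, 95% interval -4.23 to -3.18, adjusted p = 0.000130). The Smad4-null values lay at the 7.42nd to 13.2nd percentile of the probe sets of their arrays, and the WT values at the 37.8th to 50.4th. The fold therefore rests on very dim signals: floored at 64 on the linear scale the difference was -0.02 and did not pass (adjusted p = 1), and floored at 16, a level chosen after the values were seen, it was -1.70 (adjusted p = 0.000179).

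Cdx2, which in the mouse also marks trophectoderm and gut epithelium, fell as well. Its brighter probe set read 5.90 and 5.39 in Smad4-null-ac, 3.96 and 5.40 in Smad4-null-SB, 8.17 and 8.57 in Trim33-KD-ac, 8.28 and 7.97 in Trim33-KD-SB, 8.54 and 8.08 in WT-ac, and 7.68 and 8.16 in WT-SB. The Smad4-null arrays again lay apart from the other 8, and they varied more among themselves, with Smad4-null-SB replicate 1 lowest. Cdx2 averaged 5.16 ± 0.84 in Smad4-null and 8.12 ± 0.36 in WT (log2 mean ± SD, n = 4 each), a difference of -2.95 (SE 0.33, 95% interval -3.71 to -2.19, adjusted p = 0.00118). Floored at 64 it was -2.12 (adjusted p = 0.000507).

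The dimmer Cdx2 probe set gave the same direction with more scatter. It read 5.17 and 2.89 in Smad4-null-ac and 3.72 and 2.38 in Smad4-null-SB, against 6.98 and 5.68 in WT-ac and 5.89 and 5.16 in WT-SB. Its Smad4-null and WT arrays met at 5.17 and 5.16. The difference was -2.39 (SE 0.58), with an adjusted p of 0.0375 in limma when every probe set was tested on its own; 7.63% of 34945 probe sets were called lowered in that fit.

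Hoxb1, a Hox gene of the hindbrain and early mesoderm, moved less but with little scatter. Its signals were 6.34 and 6.51 in Smad4-null-ac, 6.28 and 6.16 in Smad4-null-SB, 7.52 and 7.35 in Trim33-KD-ac, 7.59 and 7.07 in Trim33-KD-SB, 7.26 and 7.40 in WT-ac, and 7.10 and 7.11 in WT-SB. Every Smad4-null array lay below every other array. Hoxb1 averaged 6.32 ± 0.14 in Smad4-null and 7.22 ± 0.14 in WT (log2 mean ± SD, n = 4 each), a difference of -0.90 (SE 0.13, 95% interval -1.19 to -0.60, adjusted p = 0.00317). Its values stayed above the median of their own arrays in every sample, and the difference was still -0.90 with the floor of 64.

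Hoxb2, the neighbour of Hoxb1 and a gene of the hindbrain, did not pass. Its signals were 6.63 and 6.36 in Smad4-null-ac, 5.41 and 6.05 in Smad4-null-SB, 6.52 and 6.30 in Trim33-KD-ac, 6.16 and 5.50 in Trim33-KD-SB, 6.02 and 6.42 in WT-ac, and 6.54 and 6.68 in WT-SB. Over both treatments together the genotypes overlapped. The Smad4-null minus WT difference was -0.30 (SE 0.21, 95% interval -0.78 to 0.18, adjusted p = 0.381). That value averages 0.28 with activin and -0.88 with SB431542, which were not tested singly.

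Cdx4, which acts with the other Cdx genes in blood and axial development, gave low signals on all arrays. It read 4.33 and 3.52 in Smad4-null-ac, 2.80 and 2.86 in Smad4-null-SB, 4.0 and 0.60 in Trim33-KD-ac, 3.48 and 3.92 in Trim33-KD-SB, 1.90 and 3.01 in WT-ac, and 3.15 and 2.97 in WT-SB. No array exceeded the 26.7th percentile of its probe sets. The Smad4-null minus WT difference was 0.62 with a wide interval of -0.97 to 2.21 (SE 0.68, adjusted p = 0.605), so a change of Cdx4 was not detectable at this signal.

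**Figure D1:**
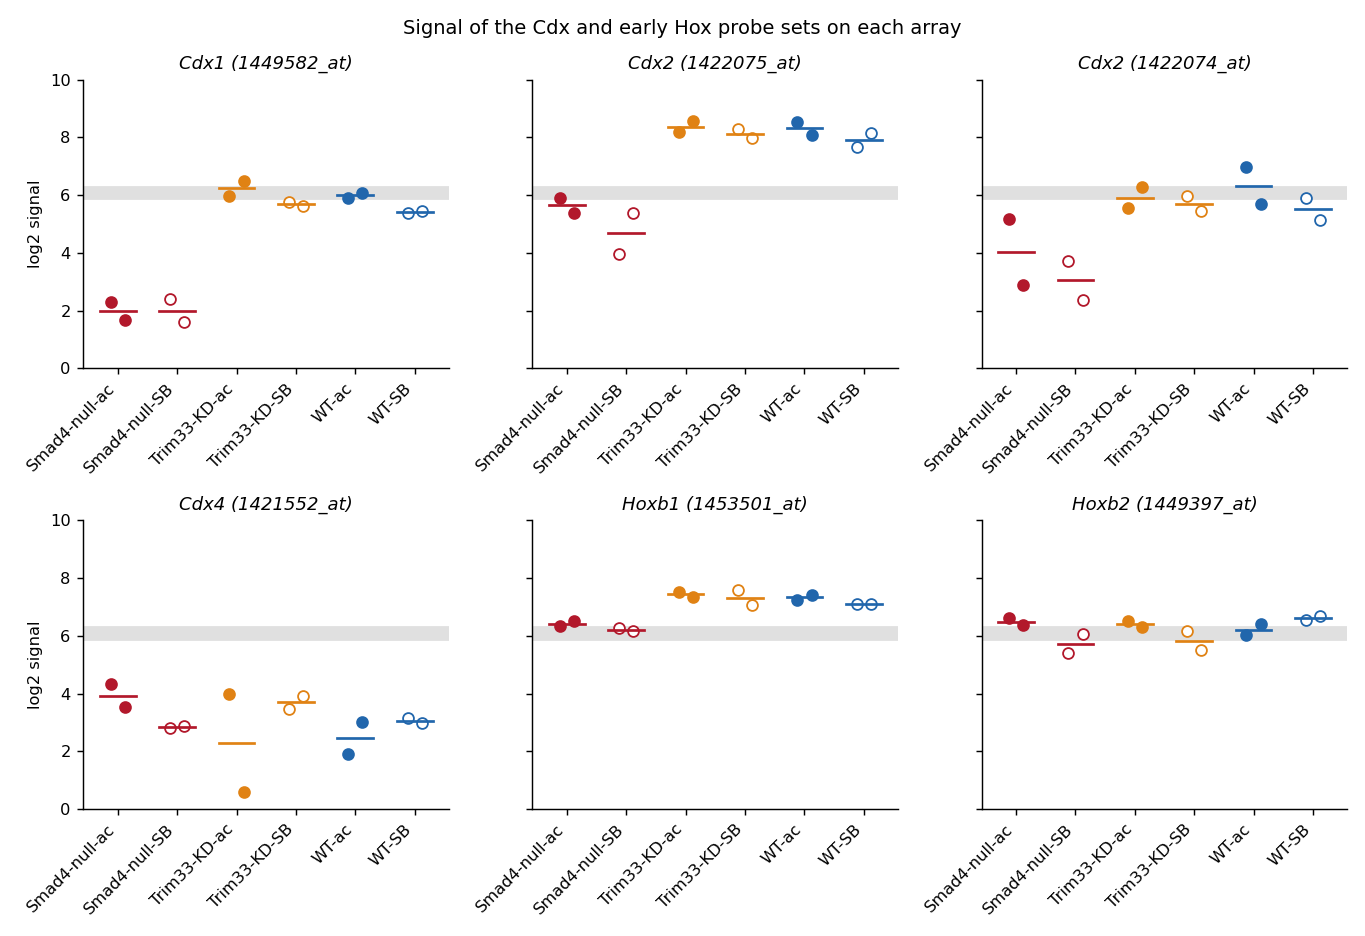
Log2 signal (y axis) of the 6 probe sets on each of the 12 arrays, by group (x axis); filled points are activin arrays, open points SB431542 arrays, bars group means, and the grey band the range of the array medians, 5.85 to 6.30. The 4 Smad4-null arrays lie below the other 8 for Cdx1, the brighter Cdx2 probe set (the second panel) and Hoxb1, and Cdx4 lies below the band on every array.

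The order of the group means, with the brighter probe set taken for Cdx2, had both Smad4-null groups at the bottom for each of the 3 lowered genes. For Cdx2 and Hoxb1 the other 4 groups ran Trim33-KD-ac, WT-ac, Trim33-KD-SB and WT-SB from high to low, and each of these neighbours overlapped the next. For Cdx1 the same order held, but of these neighbours Trim33-KD-ac and WT-ac alone overlapped. The step down to the Smad4-null groups exceeded the spread for these 3 probe sets. The dimmer Cdx2 probe set ran WT-ac, Trim33-KD-ac, Trim33-KD-SB and WT-SB above the Smad4-null groups, and each neighbour in its order overlapped the next. For Hoxb2 every neighbour in the order overlapped, with WT-SB highest at 6.61 and Smad4-null-SB lowest at 5.73. For Cdx4 the highest mean was 3.92 in Smad4-null-ac and the lowest 2.30 in Trim33-KD-ac, a group whose 2 arrays stood far apart.

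Promoters are shown for Cdx2 and Hoxb1, both low in Smad4-null arrays, and for Cdx4, where a change was not detectable at its low signal. They therefore do not contrast changed with unchanged genes. None is shown for Cdx1 or Hoxb2. RefSeq windows of 300 bases, 250 before to 50 after the gene's start in build GRCm38.p6, were found for 3 of the 5 genes, Cdx2, Cdx4 and Hoxb1. They are Cdx2 at chr5:147307200-147307499 on the minus strand, Cdx4 at chrX:103321148-103321447 on the plus strand and Hoxb1 at chr11:96365508-96365807 on the plus strand, each printed along the gene's own strand. Capitals mark any match to the motifs listed after the sequences.
Cdx2 promoter: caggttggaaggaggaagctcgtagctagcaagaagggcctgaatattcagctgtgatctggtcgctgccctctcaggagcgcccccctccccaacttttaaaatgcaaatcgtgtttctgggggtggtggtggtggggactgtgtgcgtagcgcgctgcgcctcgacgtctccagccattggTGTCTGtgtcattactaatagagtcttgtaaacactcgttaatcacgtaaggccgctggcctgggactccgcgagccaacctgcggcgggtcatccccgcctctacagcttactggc
Cdx4 promoter: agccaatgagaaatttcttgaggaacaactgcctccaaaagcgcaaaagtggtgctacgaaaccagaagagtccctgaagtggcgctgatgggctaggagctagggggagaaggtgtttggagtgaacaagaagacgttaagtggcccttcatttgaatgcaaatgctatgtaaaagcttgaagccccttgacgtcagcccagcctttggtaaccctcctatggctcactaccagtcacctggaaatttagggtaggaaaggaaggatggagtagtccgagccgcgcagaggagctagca
Hoxb1 promoter: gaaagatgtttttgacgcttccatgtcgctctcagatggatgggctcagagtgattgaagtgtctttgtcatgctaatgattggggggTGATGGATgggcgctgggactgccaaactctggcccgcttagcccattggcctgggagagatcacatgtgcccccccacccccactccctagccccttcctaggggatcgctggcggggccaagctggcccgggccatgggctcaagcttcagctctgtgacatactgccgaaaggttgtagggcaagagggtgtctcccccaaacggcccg
Both strands were searched for the Tcf and Lef core (CTTTGAA and CTTTGAT and CTTTGTA and CTTTGTT, any of them), present in 16.9% of 32851 promoter windows, for the Cdx core CATAAA (11.9%), the Foxh1 motif TGTNNATT (12.2%), the Smad palindrome GTCTAGAC (0.213%), the Smad box CAGACA (21.0%) and the composite Pbx and Hox motif TGATNNAT (8.85%). No matches overlapped in these windows. The Cdx2 window held 1 Smad box, on the opposite strand at -67 to -62 from the gene's start. The Hoxb1 window held 1 Pbx and Hox composite at -162 to -155; composite sites of this kind are known from the autoregulatory element upstream of mouse Hoxb1. The Cdx4 window held no match.

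The treatment of the embryoid bodies changed none of the 5 genes past the threshold. Limma called 0 of 5 in Smad4-null, where 0.0110% of all genes were called; 1 member, Hoxb2, had an unadjusted p under 0.05, against 6.81% of all genes. It called 0 of 5 in Trim33-KD, where 0.0110% of all genes were called, with 0 members and 4.21% of all genes at an unadjusted p under 0.05. It called 0 of 5 in WT, where 0.0330% of all genes were called, with 0 members and 4.02% of all genes at an unadjusted p under 0.05. In the mean of the 3 responses it called 0 of 5 and 0.0824% of all genes, with 0 members and 4.52% of all genes at an unadjusted p under 0.05. As a check of the treatment, 3 of 5 Smad feedback and nodal antagonist genes used as controls (Smad7, Skil, Lefty1, Lefty2 and Pmepa1) rose in WT and 4 of 5 in the mean response. In limma 0 of these 5 were called in Smad4-null and 0 of 5 in Trim33-KD, with median differences of 0.52 and 1.81, against 2.08 in WT.

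For Cdx1 the activin arrays lay above the SB431542 arrays in Trim33-KD and in WT, without passing the test. The activin minus SB431542 difference was 0.54 in Trim33-KD (SE 0.32, 95% interval -0.20 to 1.28) and 0.58 in WT (SE 0.32, 95% interval -0.16 to 1.32). Such a separation was found in 10.8% of all genes in Trim33-KD and in 9.66% in WT. In Smad4-null it was -0.01 (SE 0.32, 95% interval -0.75 to 0.73). The difference between the Smad4-null and WT responses was -0.59 (95% interval -1.64 to 0.45, adjusted p = 0.780), so these responses were not shown to differ.

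Cdx2 had positive differences of 0.97 in Smad4-null (SE 0.46), 0.25 in Trim33-KD (SE 0.46) and 0.39 in WT (SE 0.46). The Smad4-null value rests on 1 array: without Smad4-null-SB replicate 1 it was 0.25. Hoxb1 had 0.20 in Smad4-null, 0.11 in Trim33-KD and 0.22 in WT (SE 0.18 each). In the mean of the 3 responses Cdx1 had 0.37 (95% interval -0.06 to 0.80), Cdx2 0.54 (-0.08 to 1.16), Hoxb1 0.18 (-0.06 to 0.42) and Hoxb2 0.32 (-0.08 to 0.71). Cdx4 had -0.31 (-1.61 to 0.99).

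Hoxb2 had the response that varied most between genotypes among the 4 genes other than Cdx4. It was 0.76 in Smad4-null (SE 0.29), 0.58 in Trim33-KD (SE 0.29) and -0.39 in WT (SE 0.29). Activin arrays lay above SB431542 arrays in both mutants and below them in WT; over all genes, activin arrays lay above in 28.7% for Smad4-null and 10.8% for Trim33-KD, and below in 17.0% for WT. The response minus the WT response was 1.16 for Smad4-null (95% interval 0.19 to 2.12, unadjusted p = 0.0246 and adjusted p = 0.631 in limma). For Trim33-KD it was 0.97 (95% interval 0.01 to 1.93, unadjusted p = 0.0487 and adjusted p = 1 in limma). These contrasts share the WT arrays, and 0% of all genes were called in either. Of the other members 0 of 4 had an unadjusted p under 0.05 in these contrasts, against 7.24% of all genes for Smad4-null and 2.67% for Trim33-KD.

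The reduction in Smad4-null was present under both treatments. Cdx1 stood at -4.00 from WT with activin and -3.41 with SB431542, and Cdx2 at -2.67 and -3.24. Hoxb1 stood at -0.91 with activin and -0.89 with SB431542. The difference between these differences is the response contrast above; its 95% interval was -0.95 to 2.09 for Cdx2 and -0.62 to 0.57 for Hoxb1.

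**Figure D2:**
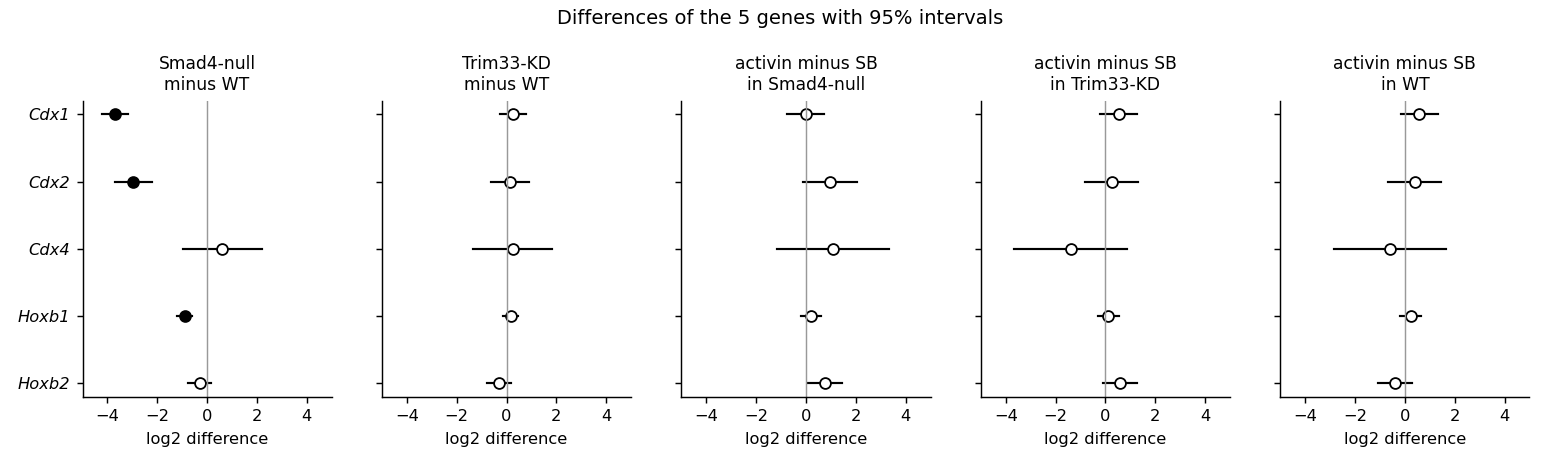
Log2 differences (x axis) of the 5 genes (y axis) with 95% intervals from limma, for each mutant minus WT and for activin minus SB431542 in each genotype; filled points have an adjusted p under 0.05. Cdx1, Cdx2 and Hoxb1 are filled in Smad4-null minus WT at -3.70, -2.95 and -0.90, and no point is filled in the other panels.

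In Trim33-KD embryoid bodies no member passed the test against WT. Limma called 0 of 5, against 0.649% of all genes, with 0 members and 17.0% of all genes at an unadjusted p under 0.05. These calls over all genes were 81 raised and 37 lowered, or 222 raised and 24 lowered with arrays centred on their medians, and their total of 118 became 10 to 103 when single arrays were left out. Cdx1 averaged 5.97 ± 0.38 in Trim33-KD and 5.70 ± 0.35 in WT (log2 mean ± SD, n = 4 each), a difference of 0.27 with a 95% interval of -0.26 to 0.79. For Cdx2 the difference was 0.13 (-0.63 to 0.89), for Hoxb1 0.16 (-0.13 to 0.46) and for Hoxb2 -0.30 (-0.78 to 0.19). The Hoxb2 value averages 0.19 with activin, where arrays overlapped, and -0.78 with SB431542, where both Trim33-KD arrays lay below both WT arrays. A fall of the size seen in Smad4-null lies outside these intervals for Cdx1, Cdx2 and Hoxb1. Cdx4 had 0.24 with an interval of -1.35 to 1.83.

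The other Hox genes gave a single call. Of 31 further Hox genes measured, 0 were raised and 1 was lowered in Smad4-null. Over all genes 11.3% were called lowered and 18.4% in either direction. The median difference of the 31 was -0.21, against -0.03 over all genes. The gene lowered was Hoxd1, which belongs to the same paralogue group as Hoxb1. Hoxd1 averaged 5.01 ± 0.21 in Smad4-null, 5.66 ± 0.62 in Trim33-KD and 6.52 ± 0.23 in WT (log2 mean ± SD, n = 4 each). Its difference from WT was -1.51 in Smad4-null (SE 0.19, adjusted p = 0.00184) and -0.87 in Trim33-KD (SE 0.19, adjusted p = 0.0973). Most of these genes were dim: 2 of 31, Hoxa5 and Hoxa9, had a mean log2 signal above 6. In Trim33-KD 0 of 31 were called, with a median of -0.15.

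**Figure D3:**
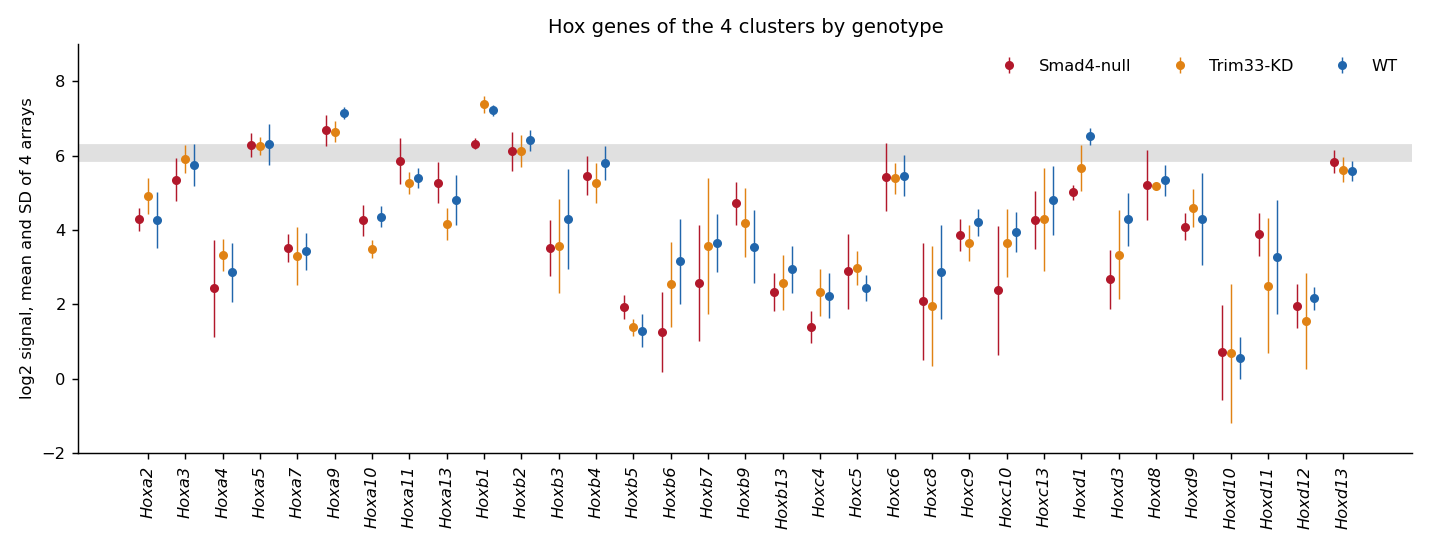
Log2 signal (y axis, mean and SD of 4 arrays) of Hoxb1, Hoxb2 and the 31 other measured Hox genes (x axis, by cluster and number) in Smad4-null, Trim33-KD and WT embryoid bodies; the grey band is the range of the array medians, 5.85 to 6.30. Most genes lie below the band, and Hoxb1 and Hoxd1 are lower in Smad4-null.

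Hox proteins bind DNA with Pbx and Meis cofactors. Of 8 cofactor genes measured, 3 fell and 1 rose in Smad4-null, with a median of -0.05. For this and the lists that follow, limma called 18.4% of all genes, 11.3% lowered, and 25.4% of the 9096 genes whose mean signal lay in the upper 50%, which hold 3 of the 8 cofactor genes. The genes that fell were Meis3 (-1.14), Pbx3 (-0.91) and Pbx2 (-0.87), and Pknox2 rose by 1.71. In Trim33-KD 0 of 8 were called.

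Wnt signals are known to induce Cdx and early Hox genes in the streak, so Wnt genes were read too. Their part in the values of the Cdx and Hox genes was not tested. Of 7 measured Wnt ligand and agonist genes 5 fell in Smad4-null and 0 rose, with a median of -2.74. Wnt8a, a ligand of the posterior streak, averaged 6.68 ± 0.11 in Smad4-null, 10.22 ± 0.14 in Trim33-KD and 10.15 ± 0.23 in WT (log2 mean ± SD, n = 4 each); it fell by 3.48 in Smad4-null (adjusted p = 3.03e-05). Wnt3, needed in the mouse for the streak to form, also fell (-3.53, SE 0.79), as did the non-canonical ligand gene Wnt11 (-2.74) and the Wnt agonist gene Rspo3 (-4.47, SE 0.62). The folds of Wnt3 and Rspo3 rest on dim Smad4-null signals. Wnt3 had log2 signals of 1.25 to 4.65 in Smad4-null and 5.57 to 7.61 in WT, and Rspo3 2.35 to 4.93 and 7.78 to 8.31. Wnt3a (-0.46) and Wnt5a (-0.04) were not called. Of 8 other Wnt targets measured 6 fell and 1 rose, with a median of -1.79. Those that fell most were Sp5 (-6.68), Sp8 (-2.68), the receptor gene Lgr5 (-2.38) and the antagonist gene Dkk1 (-1.94), and Notum rose. Sp5 was dim in Smad4-null, with log2 signals of 3.23 to 6.09. Lgr5 signals ran from 1.77 to 5.66 in Smad4-null, with an activin minus SB431542 difference of 3.10 there that was not called. Its mean fall thus averages unlike values under activin and SB431542. In Trim33-KD 0 of 7 ligand genes and 0 of 8 targets were called, with medians of -0.45 and -0.38.

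Further known inputs to posterior genes are FGF and retinoic acid, whose part in these values was not tested either. Of 5 FGF genes measured 3 fell in Smad4-null, Fgf8 (-3.37), Fgf17 (-1.02) and Fgf3 (-0.77), while the embryonic stem cell ligand gene Fgf4 rose by 1.56. Of 10 retinoid pathway genes, 7 of them in the upper 50% of mean signal, 3 fell and 1 rose, with a median of -0.10. Cyp26a1, whose enzyme degrades retinoic acid, fell by 2.42, Dhrs3 by 1.02 and Crabp2 by 0.60. Aldh1a2, whose enzyme makes retinoic acid, rose by 1.67. Its log2 signals were dim, 3.15 to 5.43 in WT and 5.88 to 6.53 in Smad4-null. In WT its activin minus SB431542 difference was 1.69 and was not called, so the rise averages unlike values. In Trim33-KD 0 of 5 FGF and 0 of 10 retinoid genes were called.

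Of 9 other posterior streak transcription factors 5 fell in Smad4-null and 0 rose, with a median of -1.47. The mesendoderm factor genes Mixl1 and Eomes fell by 4.26 and 3.65, the homeobox gene Evx1 by 4.23 and Nkx1-2, a homeobox gene of the caudal epiblast, by 2.15. Evx1 was dim in Smad4-null, with log2 signals of 3.44 to 5.08. The presomitic factors Tbx6 (-0.39) and Msgn1 (0.38) were not called. In Trim33-KD 0 of 9 were called, with a median of -0.45. None of the Wnt, FGF, retinoid, streak or Hox genes of these lists was called in the response to activin in any genotype.

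**Figure D4:**
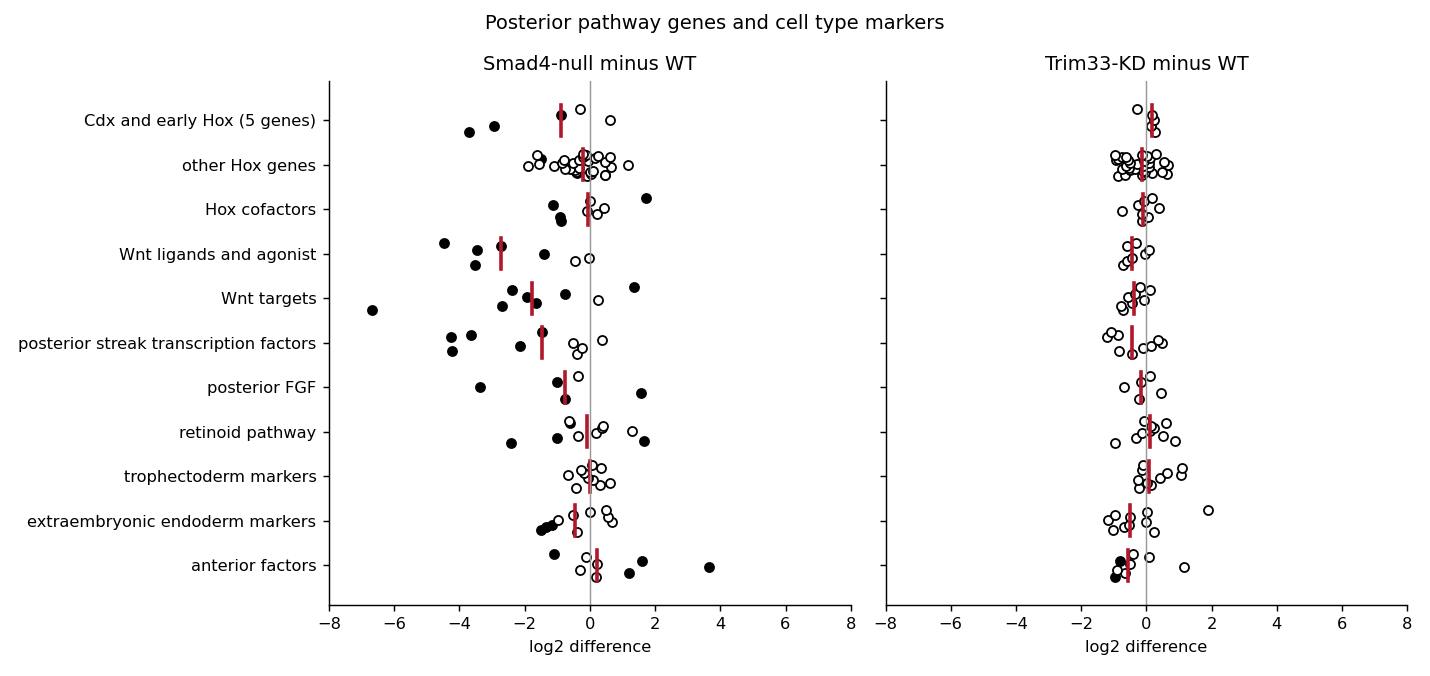
Log2 differences (x axis) of single genes by list (y axis) for Smad4-null minus WT and Trim33-KD minus WT; filled points have an adjusted p under 0.05 and red bars are list medians. In Smad4-null the medians are -0.90 for the 5 Cdx and early Hox genes, -2.74 for Wnt ligands and -1.79 for Wnt targets, and in Trim33-KD filled points appear for the anterior factors alone.

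Cdx2 also belongs to trophectoderm, so markers of that and of other cell types were read. Of 10 trophectoderm markers 0 were called in either mutant. Their summed linear signal was 3918 to 4108 on Smad4-null arrays, 5375 to 11685 on Trim33-KD arrays and 4300 to 5214 on WT arrays, most of it from the keratin genes Krt8 and Krt18 and from Tfap2c. The defining markers Elf5 and Gata3 were near the bottom of the range, with mean log2 signals of 3.50 and 1.86 in WT. Of 10 extraembryonic endoderm markers 3 fell in Smad4-null, Gata6 (-1.50), Sox7 (-1.34) and Sox17 (-1.18), and their sum was 714 to 920 on Smad4-null, 850 to 1006 on Trim33-KD and 945 to 1212 on WT arrays. Of 8 anterior factors 3 rose in Smad4-null, Lhx2 (3.66), Pax6 (1.59) and Hesx1 (1.21), and Zic2 fell. The folds of Lhx2 and Hesx1 rest on dim signals. Lhx2 had log2 signals of 0.88 to 3.91 in WT and 4.77 to 6.01 in Smad4-null, and Hesx1 4.74 to 5.21 and 5.77 to 6.51. In Trim33-KD the anterior genes Otx2 (-0.95) and Pax6 (-0.80) were called lowered (adjusted p = 0.0324 and 0.0353 in limma), where 0.649% of all genes were called. The total called in that comparison, 118, became 10 to 103 without single arrays, and these 2 calls were not followed there. The part of these cell types in the values of Cdx2 and the other genes was not tested.

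Genes in the upper 50% of mean signal whose pattern over the 12 arrays was most like each member were listed by Pearson correlation, as a description. They were Slc7a7, Eef1akmt1 and Rem2 for Cdx1 (0.989 to 0.992), Ap3b2, Lrp10 and Cabp7 for Cdx2 (0.972 to 0.979) and Plxdc2, Rb1cc1 and Nrip1 for Hoxb1 (0.970 to 0.975). Picked for likeness to genes low in Smad4-null, all 9 of these genes fell there too, with differences of -2.92 to -0.66. Slc7a7, Eef1akmt1, Rem2 and Lrp10 lie on chromosome 14, where the median Smad4-null minus WT difference over 304 brighter genes was -0.54, and 0 of the 5 members lie there. The best matches were weaker for Hoxb2 (Kcnj11, Lhfpl2 and Rsrp1, 0.812 to 0.866) and for Cdx4 (Ssb, Tuba1a and Zfand2b, 0.798 to 0.852). Arrays of 1 genotype share their cells, so these correlations also follow the genotype.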

How the data were processed

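Biotinylated cRNA from 6 ug of total RNA per sample was hybridized to Affymetrix arrays, per the labels' protocols. Values were deposited as log2 signals for each probe set, as their range and the trimmed mean of 500 on each antilogged array (2% trimmed from either side) show; the submitters' processing notes name limma, and no source used here states the summarization. The deposited log2 values were used unchanged. Probe sets were named from the platform annotation: 34945 had 1 symbol, 932 several and 9160 none. The brightest probe set stood for each of 18193 genes.

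A means model over the 6 groups was fitted (limma 3.58.1 in R 4.3.3; lmFit and eBayes; 6 residual degrees of freedom; every array included) and tested on simulated data, with Benjamini-Hochberg adjustment over all genes and a threshold of 0.05. In the simulation, falls of 1, 2 and 3 on the log2 scale were recovered for 17.9%, 46.3% and 69.7% of genes of lower mean signal. Among genes in the upper 50% of mean signal it was 91%, 100% and 100%. All 5 members are among the genes of lower signal, so a gene that was not called may still have changed. The members and lists were chosen with earlier results of these data known. Named list genes are up to 4 called members with the largest difference, or the brightest where none was called; Tbx6, Msgn1, Wnt3a, Wnt5a, Notum, Elf5 and Gata3 were chosen after their values were seen. T, Tcf7 and Sis were not analysed here. The alternatives tried were median centring, quantile normalization, the upper 50% of genes, the mean of probe sets, each probe set alone, floors of 64 and 16, only the groups compared, a replicate block, and leaving out arrays. Figures used Python 3.11.15 and matplotlib 3.10.9. Chromosomes and promoters are from GRCm38.p6.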

Additional observations from a re-analysis of the deposited data

How the results depend on the processing

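The 3 calls in Smad4-null (Cdx1, Cdx2 and Hoxb1) held under quantile normalization, median centring, the mean of probe sets, each probe set alone, only the groups compared, the floor of 16, without the arrays of narrow spread, and without each array in turn (3 calls each time). With the floor of 64 the call of Cdx1 was lost (-0.02), since no Cdx1 signal exceeded 89.7 on the linear scale, and 2 remained. Without each array in turn Cdx1 ran from -3.90 to -3.50, Cdx2 from -3.31 to -2.59 and Hoxb1 from -0.94 to -0.86. The upper 50% of genes by mean signal held none of the 5, so that setting gave no value for them. In every other comparison 0 of 5 were called under each alternative that kept them.

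Values that turned sign belonged to differences that passed under no setting. With the floor of 64 the response of Cdx2 in Smad4-null minus WT was -0.39 and that of Cdx1 in Trim33-KD minus WT 0.20. With the floor of 16 the mean response of Cdx4 was 0.054, and without the arrays of narrow spread the response of Hoxb1 in Smad4-null minus WT was 0.059; the cause was not tested. Without single arrays, Cdx4 in Trim33-KD minus WT ran from -0.61 to 1.09 (negative without Trim33-KD-ac replicate 1 or WT-ac replicate 1). Its response in Trim33-KD ran from -3.10 to 0.30 and its mean response from -0.87 to 0.26, both positive without Trim33-KD-ac replicate 2. The response of Cdx1 in Smad4-null ran from -0.41 to 0.39 and that of Hoxb1 in Trim33-KD from -0.16 to 0.37. The response minus the WT response ran from -0.15 to 1.29 for Cdx2 and -0.11 to 0.061 for Hoxb1 in Smad4-null, and from -0.30 to 0.21 for Cdx1, -0.39 to 0.10 for Cdx2, -2.49 to 0.90 for Cdx4 and -0.38 to 0.14 for Hoxb1 in Trim33-KD.

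Counts over all genes moved more. The 3356 of Smad4-null minus WT lay between 2026 (without the arrays of narrow spread) and 4303 (each probe set alone), and the 118 of Trim33-KD minus WT between 2 (only the groups compared) and 787 (upper 50% of genes); leaving out Trim33-KD-SB replicate 2 gave 10 and leaving out Trim33-KD-ac replicate 2 gave 15, the lowest without a single array. The responses had 6 in WT (0 to 14), 2 in Smad4-null (0 to 19), 2 in Trim33-KD (0 to 13) and 15 in the mean response (5 to 49); the response differences had 0 (0 to 17 in Smad4-null and 0 to 2 in Trim33-KD). Median centring moved the median of all genes in Trim33-KD minus WT to 0.16, against -0.04 as deposited; Cdx1 then stood at 0.47 and Hoxb1 at 0.37, neither called. It moved the median of the Smad4-null response minus the WT response to -0.17, against 0.11, that of the Trim33-KD response minus the WT response to -0.12, against 0.00, and those of the responses to -0.10, against 0.06, in Smad4-null and to 0.07, against -0.05, in WT. Same-numbered replicates did not deviate together across all groups (correlations of deviations between groups from -0.30 to 0.39, 6 of 15 over 0.1). Between the activin and SB431542 groups of the same genotype the correlation was 0.39 in WT, 0.34 in Trim33-KD and -0.19 in Smad4-null. The numbers were not taken to pair arrays, and a pairing within WT or Trim33-KD was not excluded. With the replicate block 3 of 5 genes were still called in Smad4-null, with 3100 genes over all.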

Other observations

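Genes near the function of these factors but outside the patterning pathways were also read. Of 12 chromatin regulators of Hox clusters 2 rose and 2 fell in Smad4-null. All 12 lie in the upper 50% of mean signal, where 25.4% of genes were called, so 4 of 12 is near the background. The Polycomb genes Suz12 (0.67) and Jarid2 (0.42) rose, while the activating methyltransferase gene Kmt2a (-0.52) and the Polycomb gene Ring1 (-0.42) fell. In Trim33-KD Suz12 rose by 0.49 (adjusted p = 0.0484 in limma) and the other 11 were not called. Of 4 measured intestinal genes that Cdx2 activates in the gut, Vil1 fell by 0.56 in Smad4-null (adjusted p = 0.0319), and Cdh17, Lct and Muc2 were not called. Their summed linear signal was 84.8 to 121 on Smad4-null arrays, 92.0 to 116 on Trim33-KD arrays and 93.3 to 156 on WT arrays.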
